A study of Mus musculus with 24 samples.

Results

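The basement membrane collagens were measured in the liver as 8 genes: the 6 collagen IV chains Col4a1, Col4a2, Col4a3, Col4a4, Col4a5 and Col4a6, and the multiplexins Col15a1 and Col18a1. They were taken by gene symbol from the annotation of the arrays, and each of the 8 had 1 probe set assigned to a single gene, among the 18820 genes measured in this way. All mice were male, 4 to 6 months old, on a C57Bl/6 background, and received for 7 weeks a modified TestDiet 58V8 with 45 energy percent of fat. In the Trans group the fat came from partially hydrogenated soy oil and was rich in trans-unsaturated fatty acids. The Cis group received canola and palm olein oil, rich in cis-unsaturated fatty acids, and the Saturated group received cocoa butter, with n = 8 livers per diet. No group fed a diet low in fat belongs to the comparison, so each difference below is between diets that were all high in fat.

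Basement membranes are thin sheets of matrix that lie under epithelia and endothelia and around muscle cells. Collagen IV forms their covalent network: chains assemble into helices inside the cell, and the helices join end to end outside it. The chains of Col4a1 and Col4a2 form the network found in nearly all tissues, whereas those of Col4a3, Col4a4 and Col4a5 form the network of the glomerular basement membrane in the kidney, and those of Col4a5 and Col4a6 join in basement membranes such as those of smooth muscle. Collagens XV and XVIII carry glycosaminoglycan side chains and sit where basement membranes meet the surrounding matrix, and the end piece of collagen XVIII is endostatin. The healthy liver sinusoid lacks a continuous basement membrane, and collagen IV along the sinusoid accumulates when stellate cells are activated in liver injury. Collagen XVIII in the liver is made largely by hepatocytes.

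The collagen IV chains are encoded in pairs of neighbouring genes, on chromosome 8 (Col4a1 with Col4a2), chromosome 1 (Col4a3 with Col4a4) and chromosome X (Col4a5 with Col4a6). Promoter windows from RefSeq (GRCm38.p6), from 250 bases before to 50 bases after the start site, matched 7 of the 8 genes. The windows of the first pair are shown because both genes are read from nearly the same point in opposite directions, with capitals for the 78 bases that the windows share, chr8:11312777-11312854. Col4a1 is on the minus strand (chr8:11312777-11313076) and Col4a2 on the plus strand (chr8:11312555-11312854).
Col4a1: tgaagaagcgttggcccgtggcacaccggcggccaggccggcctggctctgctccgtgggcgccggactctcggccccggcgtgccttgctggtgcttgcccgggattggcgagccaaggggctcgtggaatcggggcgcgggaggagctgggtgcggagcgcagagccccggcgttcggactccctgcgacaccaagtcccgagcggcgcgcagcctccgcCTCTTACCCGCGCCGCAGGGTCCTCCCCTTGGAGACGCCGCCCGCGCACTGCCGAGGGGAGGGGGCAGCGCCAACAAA
Col4a2: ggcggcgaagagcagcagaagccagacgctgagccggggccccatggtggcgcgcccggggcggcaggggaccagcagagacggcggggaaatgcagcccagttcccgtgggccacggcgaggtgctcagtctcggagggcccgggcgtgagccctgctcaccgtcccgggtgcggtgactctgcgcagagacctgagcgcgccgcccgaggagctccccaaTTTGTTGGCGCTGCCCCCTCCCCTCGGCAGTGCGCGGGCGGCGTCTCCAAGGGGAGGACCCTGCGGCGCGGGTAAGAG
Their start sites lie 21 bases apart, and only 10.8% of all 32851 windows in the table overlap a window of another gene on the other strand. The windows of the pair on chromosome X are shown for contrast, since they share 0 bases and their start sites lie 1343 bases apart. Capitals mark CCAAT as well as the motif GGGCGG, each on either strand, and the windows are chrX:141475169-141475468 on the plus strand for Col4a5 and chrX:141474027-141474326 on the minus strand for Col4a6.
Col4a5: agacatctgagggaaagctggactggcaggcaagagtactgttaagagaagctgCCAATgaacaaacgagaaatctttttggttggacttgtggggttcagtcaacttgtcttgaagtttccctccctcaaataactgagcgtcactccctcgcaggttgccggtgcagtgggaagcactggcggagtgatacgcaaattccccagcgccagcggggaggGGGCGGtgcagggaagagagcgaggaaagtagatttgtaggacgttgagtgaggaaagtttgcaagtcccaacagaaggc
Col4a6: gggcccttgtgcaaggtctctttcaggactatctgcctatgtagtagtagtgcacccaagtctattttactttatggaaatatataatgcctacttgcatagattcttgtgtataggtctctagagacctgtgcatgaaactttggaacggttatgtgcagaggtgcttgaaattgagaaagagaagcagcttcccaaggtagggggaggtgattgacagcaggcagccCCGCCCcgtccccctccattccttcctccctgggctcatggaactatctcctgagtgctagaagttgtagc
CCAAT, searched on both strands, was found in 1 place in each of the windows of Col4a1, Col4a2 and Col4a5 and in 0 places in that of Col4a6, and 37.4% of all windows hold it. GGGCGG was found in 1 place in the windows of Col4a1, Col4a5 and Col4a6 and in 3 places in that of Col4a2, and 35.7% of all windows hold it. The match in the Col4a1 window lies in the shared stretch and is also 1 of the 3 in the Col4a2 window. TATAAA was found in 0 of the 4 windows and in 13.6% of all windows. G and C made up 74.0% of the Col4a1 window and 73.7% of the Col4a2 window, 52.7% of the Col4a5 window and 48.3% of the Col4a6 window, beside a median of 52.7% over all windows.

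Values are log2 values after the robust multi-array average (RMA), with 1 array per liver and 1 value per probe set. The 24 arrays were alike, with medians between 2.94 and 3.06 and a median correlation with the other arrays between 0.975 (Trans replicate 4) and 0.986. The hepatocyte markers were high in all livers, and all 8 had a mean signal over 20, the level that the study used as a filter in its cell lines. Signal here is the RMA value back on the linear scale, and mean signals are means on that scale. Whether a gene reached 20, here and in the lists below, was judged from its mean log2 value against the log2 of 20. Of the basement membrane collagens, Col18a1 had a mean signal of 184, Col4a1 of 22.3 and Col4a2 of 20.5. The mean signal was 18.1 for Col15a1, 6.71 for Col4a3, 5.73 for Col4a4, 5.09 for Col4a5 and 3.88 for Col4a6. These last 5 lie under 20, the table holds no detection call, and signals of different probe sets are not compared with each other. The mean log2 values of Col4a3 (2.74), Col4a4 (2.51), Col4a5 (2.34) and Col4a6 (1.94) also lie under the lowest array median of 2.94.

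The question put to the Trans and Saturated livers was whether these genes differ between a diet rich in trans-unsaturated and one rich in saturated fatty acids. Col4a2 and Col4a1, which encode the common network, had the largest differences of the 8 genes, both towards higher values in the Trans livers. No difference passed the test over all probe sets. The pair is given first, followed by the other collagen IV chains and the multiplexins.

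Col4a2 ranged in the Trans livers from 4.21 to 5.02 with a median of 4.55, in the Cis livers from 4.02 to 4.65 with a median of 4.33, and in the Saturated livers from 3.87 to 4.31 with a median of 4.13. Trans replicate 1 was the highest of all 24 livers and Saturated replicate 1 the lowest. All 8 Trans livers lay above the mean of the Saturated livers and 6 of 8 lay above every Saturated liver, but the groups overlapped through Trans replicates 6 and 7. The mean was 4.56 ± 0.26 in Trans, 4.32 ± 0.18 in Cis and 4.12 ± 0.18 in Saturated (SD, n = 8 each). The Trans mean was 0.44 above the Saturated mean on the log2 scale (SE 0.10, 1.36-fold, 95% confidence interval 0.23 to 0.66). The p-value from limma was 2.54e-04 before and 0.210 after Benjamini-Hochberg adjustment over 35556 probe sets.

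Col4a1 ranged from 4.33 to 5.25 in the Trans livers (median 4.59), from 3.98 to 4.69 in the Cis livers (median 4.46) and from 4.04 to 4.45 in the Saturated livers (median 4.32). The highest liver was again Trans replicate 1, and the lowest was Cis replicate 7. All 8 Trans livers were above the Saturated mean, and 6 of 8 were above every Saturated liver. The difference between Trans and Saturated was 0.34 (SE 0.11, 1.27-fold, 95% confidence interval 0.11 to 0.57), with an adjusted p of 0.472 and an unadjusted p of 0.00523. For both genes the order of the means was Saturated, Cis and Trans, and neighbours in that order did not differ beyond the adjusted threshold. The Cis mean was above the Saturated mean by 0.20 for Col4a2 (adjusted p = 0.783) and by 0.11 for Col4a1 (adjusted p = 0.896). The Trans mean was above the Cis mean by 0.24 for Col4a2 and by 0.22 for Col4a1, with an adjusted p of 0.802 for both. Without Trans replicate 1 the latter pair of differences was 0.17 for Col4a2 and 0.14 for Col4a1, and without Cis replicate 6 the Cis mean of Col4a1 was 0.08 above the Saturated mean.

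**Figure D1:**
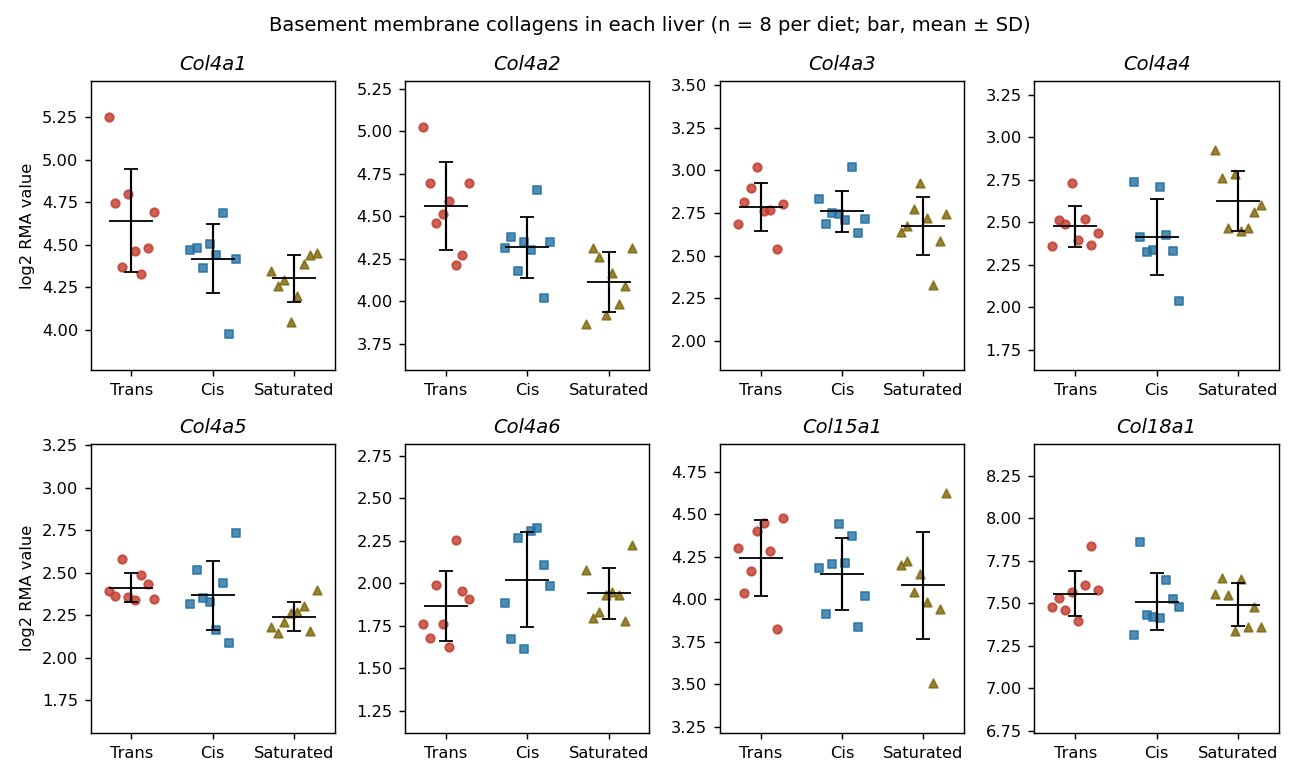
RMA value on the log2 scale (y axis, each panel spanning the same number of log2 units) in each of the 24 livers by diet, for the 8 basement membrane collagens, with points for livers in the order of their replicate numbers and bars for the mean ± SD of 8 livers. Trans replicate 1 stands highest for Col4a1 (5.25) and Col4a2 (5.02), and the diets overlap in every panel.

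Both differences were smaller without Trans replicate 1. With that liver left out, the difference between Trans and Saturated was 0.38 for Col4a2 and 0.25 for Col4a1, the lowest values when each liver was left out in turn, and the highest were 0.49 and 0.38 without Trans replicate 6. The same liver had the highest summed signal of the 7 smooth muscle markers (297), of the laminins and other basement membrane proteins (866), of the collagen IV and laminin receptors (762) and of the basement membrane proteases and inhibitors (1528). It had the lowest summed signal of the hepatocyte markers among the 24 livers. A sum on the linear scale is weighted towards the genes of highest signal, so it does not describe every gene of a list. Sparc had the highest mean log2 value (7.84) of the laminins and other basement membrane proteins. Among the receptors it was Itgb1 (8.36), and among the proteases and inhibitors Ctsl (9.56). Summed signals of markers are described with the other lists below, and their part in the differences was not tested. In bulk liver, a change in the number of cells of a type and a change in RNA per cell cannot be told apart.

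Among the chains of the more restricted networks, Col4a5 had a higher mean in the Trans than in the Saturated livers. Its values ran from 2.34 to 2.58 in Trans (median 2.38), from 2.08 to 2.73 in Cis (median 2.34) and from 2.15 to 2.40 in Saturated (median 2.24). All 8 Trans livers lay above the Saturated mean, and 7 of 8 Saturated livers lay below every Trans liver, with Saturated replicate 8 the exception. The Trans mean was 0.17 above the Saturated mean (SE 0.07, 1.13-fold), with an unadjusted p of 0.025 and an adjusted p of 0.623. The Cis livers spread over more than the range of both other diets, and their mean differed from the Trans mean by 0.05 (adjusted p = 0.956), and by 0.0061 without Cis replicate 7.

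Col4a4, the partner of Col4a3 and Col4a5 in the network of the glomerulus, had lower means in the Trans and Cis livers than in the Saturated livers. Its values ran from 2.36 to 2.73 in Trans (median 2.46), from 2.04 to 2.73 in Cis (median 2.38) and from 2.45 to 2.92 in Saturated (median 2.58). The lowest liver was Cis replicate 8 and the highest Saturated replicate 1, and 6 of 8 Cis livers lay below every Saturated liver. The Cis mean was below the Saturated mean, with a log2 difference of -0.21 (SE 0.09, unadjusted p = 0.0272, adjusted p = 0.705). The Trans mean was also below it, with a log2 difference of -0.15 (SE 0.09, adjusted p = 0.764).

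Col4a3 ran from 2.54 to 3.02 in Trans, from 2.64 to 3.02 in Cis and from 2.33 to 2.92 in Saturated, with medians of 2.78, 2.73 and 2.70. The 3 diets overlapped, and the largest log2 difference was 0.11, between Trans and Saturated (SE 0.08, adjusted p = 0.802), and it was 0.06 without Saturated replicate 6. Col4a6 ran from 1.62 to 2.25 in Trans, from 1.61 to 2.33 in Cis and from 1.78 to 2.22 in Saturated, with medians of 1.83, 2.05 and 1.93. Its largest log2 difference was -0.15, between Trans and Cis (SE 0.11, adjusted p = 0.857), and 7 of 8 Trans livers lay below the Cis mean.

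Col18a1, which encodes the precursor of endostatin, differed by at most 0.07 on the log2 scale between diet means. It ran from 7.40 to 7.83 in Trans (median 7.55), from 7.32 to 7.86 in Cis (median 7.45) and from 7.34 to 7.65 in Saturated (median 7.51). The difference between Trans and Saturated was 0.07 with a 95% confidence interval from -0.09 to 0.22 (adjusted p = 0.913). The differences were 0.05 between Trans and Cis (95% confidence interval -0.11 to 0.20) and 0.02 between Cis and Saturated (-0.14 to 0.17). Without Trans replicate 7 the difference of the Trans mean was 0.03 from Saturated and 0.0065 from Cis.

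Col15a1, the relative of Col18a1, had the widest spread between livers of a diet, with a pooled SD of 0.25. It ran from 3.83 to 4.48 in Trans (median 4.29), from 3.84 to 4.45 in Cis (median 4.20) and from 3.51 to 4.62 in Saturated (median 4.09). Both the highest and the lowest of the 24 livers were Saturated livers, replicates 8 and 6. The difference between Trans and Saturated was 0.16 (SE 0.12, adjusted p = 0.836), and it was 0.08 without Saturated replicate 6 and 0.24 without Saturated replicate 8.

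**Figure D2:**
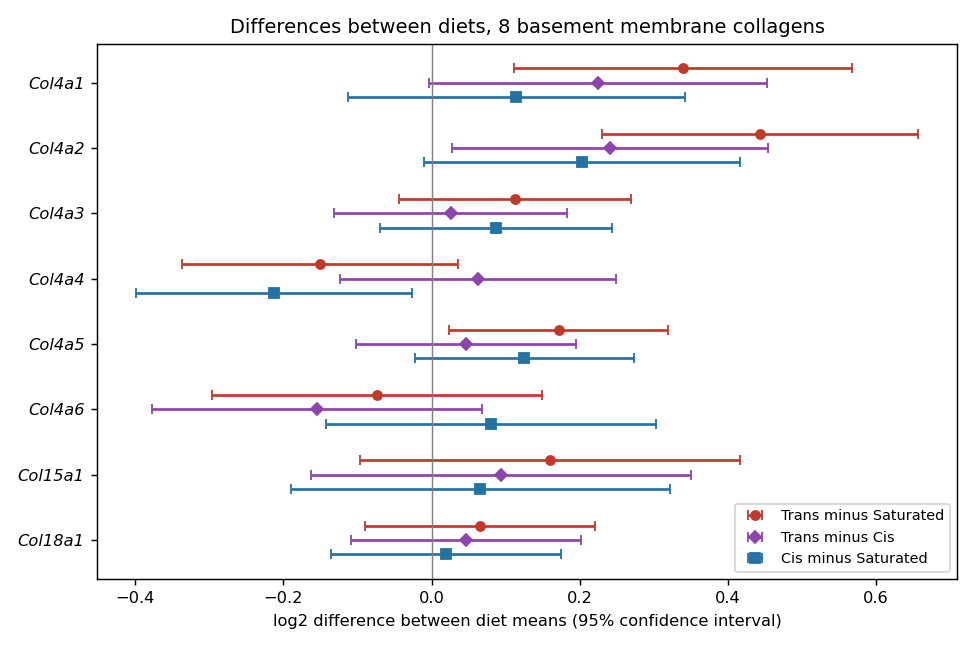
Log2 difference between diet means (x axis) with its 95% confidence interval from limma for each of the 8 basement membrane collagens (y axis), in the 3 comparisons of diets with n = 8 livers each. The intervals of Col4a1, Col4a2 and Col4a5 for Trans minus Saturated lie above 0, that of Col4a2 for Trans minus Cis lies above 0 and that of Col4a4 for Cis minus Saturated lies below 0. None of the 24 differences passed the adjusted threshold.

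Over all probe sets, the comparison of Trans with Saturated gave 3 calls at an adjusted p under 0.05, which is 0.00844% of the 35556 tested, and 0 of the 8 collagens were among them. With each liver left out in turn this count ran from 1 to 16, with 16 without Saturated replicate 2 and 6 without Saturated replicate 1, and still with 0 of the 8 genes. At an unadjusted p under 0.05, 3 of 8 were higher in Trans (Col4a1, Col4a2 and Col4a5) against 3.79% of all probe sets, and 0 of 8 were lower against 3.54%. The comparison of Trans with Cis gave 1 call (0.00281%), again with 0 of the 8 genes, while at an unadjusted p under 0.05 there was 1 of 8 higher (Col4a2) against 3.05% and 0 of 8 lower against 3.12%. The comparison of Cis with Saturated gave 0 calls by limma (0%), and at an unadjusted p under 0.05 there were 0 of 8 higher against 3.3% and 1 of 8 lower (Col4a4) against 3.27%. With each liver left out, the number of the 8 genes at an unadjusted p under 0.05 in either direction ran from 2 to 3 for Trans against Saturated, from 0 to 2 for Trans against Cis (0 without Trans replicate 1, among others) and from 0 to 3 for Cis against Saturated (3 without Cis replicate 7 and 0 without Cis replicate 8, among others). For 0 of the 8 genes did the 8 livers of a diet lie apart from the 8 livers of another. This was so for 0.0675% of all probe sets between Trans and Saturated, 0.0281% between Trans and Cis and 0.0337% between Cis and Saturated.

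The median log2 difference of the 8 genes between Trans and Saturated was 0.14, with 6 of 8 higher in Trans, beside a median of 0.0038 and 51.6% of genes higher over the 18820 genes. Between Trans and Cis the median was 0.05, with 7 of 8 higher, and between Cis and Saturated it was 0.08, with 7 of 8 higher. Over all genes these medians were 0.0013 and 0.0036, with 50.5% and 51.4% of genes higher. The median of the 8 genes was 0.07 between Trans and Saturated without Saturated replicate 6. Between Cis and Saturated it ran from 0.04 without Cis replicate 6 to 0.13 without Saturated replicate 8. Each diet enters in a pair of these comparisons, so the 3 medians share their livers.

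The next question was whether chains encoded by neighbouring genes varied together from liver to liver within a diet. For Col4a1 with Col4a2, the deviations from the diet means were correlated over the 24 livers, with Pearson's r = 0.76 (permutation within diets, p = 0.00021, adjusted over 3 pairs p = 0.00063) and Spearman's rho = 0.58 (p = 0.00654, adjusted p = 0.0196). Without Trans replicate 1 and Cis replicate 7, the livers farthest from the median of Col4a1, r was 0.56 by the same test (permutation p = 0.0143, adjusted p = 0.043). Within diets r was 0.87 in Trans, 0.93 in Cis and 0.22 in Saturated, with 8 livers each, and whether the diets differ in r was not tested. A liver with a high value of one chain of this pair thus tended to have a high value of the other in the Trans and Cis groups.

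The other pairs did not reach the threshold. For Col4a3 with Col4a4, r was 0.38 (permutation p = 0.074, adjusted p = 0.111) and rho 0.39 (p = 0.0721), r without the livers farthest from the median was 0.20, and r within diets was 0.84 in Trans, 0.22 in Cis and 0.30 in Saturated. For Col4a5 with Col4a6, r was 0.07 (permutation p = 0.797, adjusted p = 0.797) and rho 0.24 (p = 0.295), r without the livers farthest from the median was 0.20, and r within diets was 0.70 in Trans, -0.27 in Cis and 0.74 in Saturated. All 4 of these probe sets had a mean signal under 20.

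**Figure D3:**
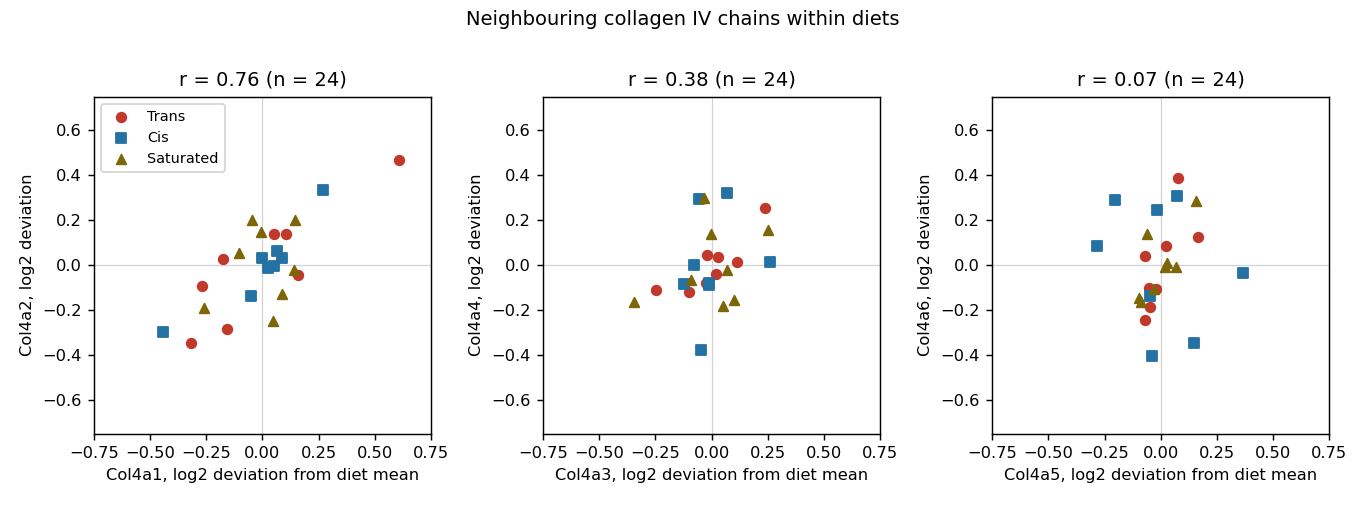
Deviation of each liver from the mean of its diet on the log2 scale, for both genes of each neighbouring pair of collagen IV chains (24 livers, marked by diet). Col4a1 and Col4a2 lie along a line (r = 0.76), with Trans replicate 1 at the upper right and Cis replicate 7 at the lower left, while Col4a3 with Col4a4 (r = 0.38) and Col4a5 with Col4a6 (r = 0.07) scatter more widely.

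The chains of a pair did not always differ between diets by the same amount. This was tested on the log2 difference between both chains within each liver, a test chosen after the values of the 8 genes had been seen, by an exact two-sided permutation test of 8 against 8 livers with Benjamini-Hochberg adjustment over the 9 tests. The difference Col4a4 minus Col4a3 was shifted by -0.26 in Trans against Saturated livers (exact p = 0.00357, adjusted p = 0.0182), and it was under the Saturated mean in 8 of 8 Trans livers. In Cis against Saturated livers it was -0.30 (exact p = 0.0177, adjusted p = 0.0531, 7 of 8 Cis livers under the Saturated mean). The difference Col4a6 minus Col4a5 was -0.25 in Trans against Saturated livers (exact p = 0.00404, adjusted p = 0.0182, 7 of 8 Trans livers under the Saturated mean). For Col4a2 minus Col4a1 the difference between Trans and Saturated was 0.10 (exact p = 0.253, adjusted p = 0.38), and 0.06 without Saturated replicate 1. Col4a3, Col4a4, Col4a5 and Col4a6, on which the former shifts rest, all had mean signals under 20.

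The other proteins of the basement membrane were then read from the same fit. Of 20 listed laminins and other basement membrane proteins, 18 were measured, and in Trans against Saturated 12 were higher and 6 lower, with 0 calls and a median of 0.05. Sparc, a matrix protein that binds collagen IV, was 0.33 higher in Trans (SE 0.13, adjusted p = 0.561), and the laminin chain genes Lama2 and Lamb3 were 0.32 (adjusted p = 0.620) and 0.27 higher (adjusted p = 0.644). Hspg2, which encodes perlecan, differed by 0.02 (SE 0.06). In Trans against Cis, 15 of 18 were higher, with the smallest p-values for Lama2 (0.29), Sparc (0.26) and Lamc1 (0.15). In Cis against Saturated, 10 of 18 were higher, with the smallest p-values for Lamb3 (0.25), Lama5 (-0.19) and Lama1 (-0.09). A mean signal over 20 was reached by 8 of the 18, but not by Lama1, Lama2, Lama5 or Lamb3.

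Collagen chains are hydroxylated, folded and crosslinked by a shared set of enzymes and chaperones. Of 23 listed genes for assembly and crosslinking, 21 were measured, and the Trans mean was the higher one for 11 and the lower one for 10 of them beside Saturated, with 0 calls and a median of 0.03. The lysyl hydroxylase gene Plod1 was 0.24 higher (SE 0.08, adjusted p = 0.469), Loxl1 of the lysyl oxidase family was 0.32 higher (SE 0.15, adjusted p = 0.677), and the prolyl hydroxylase subunit gene P4ha1 had a difference of -0.25 (SE 0.11, adjusted p = 0.661). Pxdn, which encodes the peroxidase that crosslinks collagen IV, differed by -0.0072 (SE 0.09). In Trans against Cis, 16 of 21 were higher, among them the collagen chaperone gene Serpinh1 (0.26) and the prolyl hydroxylase gene P3h2 (0.22), with P4ha2 at -0.17. In Cis against Saturated, 11 of 21 were higher, and the smallest p-values were those of Plod1 (0.16), Pxdn (-0.13) and Colgalt2 (0.11). A mean signal over 20 was reached by 10 of the 21, but not by Loxl1, Serpinh1, P4ha2 or Colgalt2.

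All 13 genes listed as receptors for collagen IV and laminin were measured, and 7 were higher in Trans than in Saturated, with 0 calls and a median of 0.05. Ddr2, which encodes a receptor kinase mainly for fibrillar collagens, was 0.25 higher (SE 0.07, unadjusted p = 0.00122, adjusted p = 0.336). The laminin-binding integrin gene Itgb4 was 0.25 higher (SE 0.09, adjusted p = 0.554). The third by p-value was Bcam, a receptor for laminin, at 0.17. In Trans against Cis, 11 of 13 were higher, with Ddr2 at 0.20 (adjusted p = 0.705), Itga6 at 0.32 and Itgb4 at 0.16. In Cis against Saturated, 5 of 13 were higher, and the smallest p-values were those of Itga1 (-0.12), Itga3 (-0.19) and Itgb1 (-0.06). A mean signal over 20 was reached by 4 of the 13. Ddr2 lay just under it, with a mean log2 value of 4.31, and Itgb4, Bcam and Itga6 were also under it.

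Of 13 listed proteases and inhibitors that act on basement membranes, 11 were measured, and 9 were higher in Trans than in Saturated, with 0 calls and a median of 0.07. Timp2, an inhibitor of matrix metalloproteinases, was 0.26 higher than in Saturated (SE 0.15, adjusted p = 0.753) and 0.39 higher than in Cis livers (adjusted p = 0.763). Bmp1, which encodes a procollagen proteinase, had a difference of -0.22 in both comparisons (adjusted p = 0.623 and 0.784). Timp4 differed by 0.12 between Trans and Saturated and by 0.06 between Cis and Saturated. In Trans against Cis, 9 of 11 were higher, with the cathepsin gene Ctsl at 0.14, and in Cis against Saturated, 4 of 11 were higher, with Ctsl at -0.12 and Timp2 at -0.13. A mean signal over 20 was reached by 6 of the 11, but not by Timp4.

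**Figure D4:**
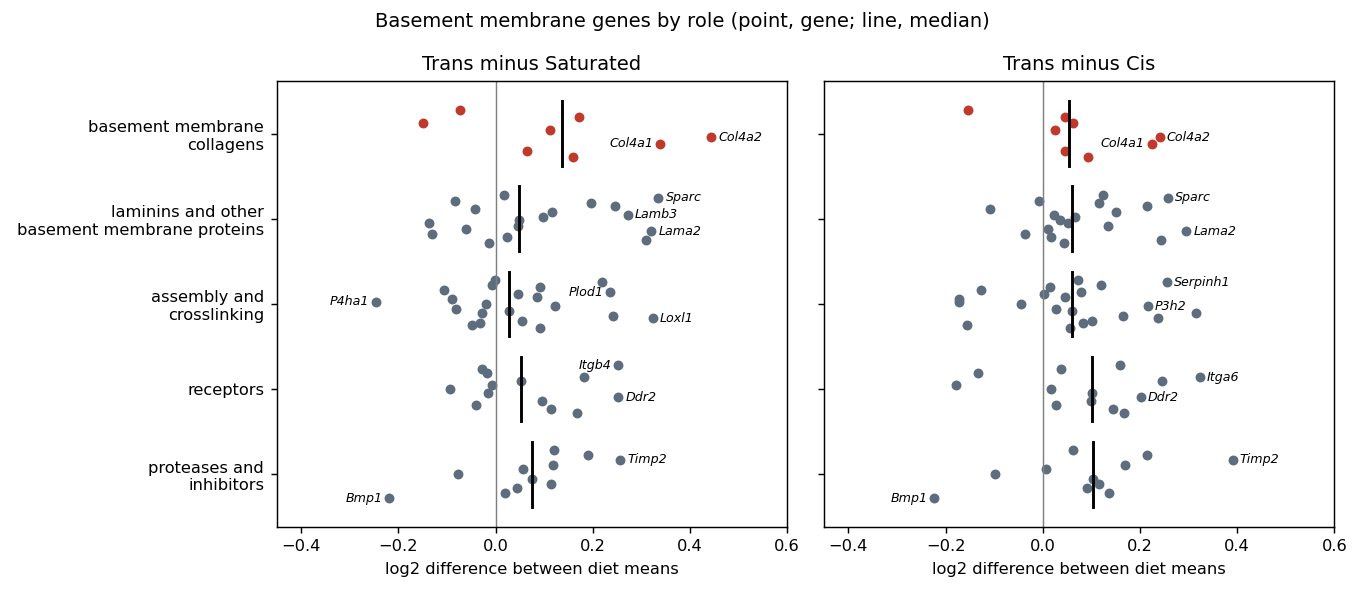
Log2 difference between diet means (x axis) for Trans minus Saturated and Trans minus Cis, with 1 point per gene, by role (y axis), and a line at the median of each group. Names mark genes with a difference over 0.2 in size, among the collagens and the 3 smallest p-values of each list. The medians for Trans minus Saturated were 0.14 for the 8 collagens, 0.05 for laminins and other proteins, 0.03 for assembly and crosslinking, 0.05 for receptors and 0.07 for proteases and inhibitors.

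The cell marker lists differed in direction between Trans and Saturated livers, and 0 genes of any list were called. All 7 smooth muscle markers were higher in Trans than in Saturated (median 0.39, 0 calls), with Acta2 at 0.96 (SE 0.36, adjusted p = 0.562) and Myh11 at 0.45. Only 2 of the 7 had a mean signal over 20, and Myh11 was under it. The summed signal of all 7 ran from 84.6 to 297 in Trans, from 83.4 to 147 in Cis and from 85.2 to 128 in Saturated livers. Trans replicates 1 (297), 4 (289) and 8 (172) were the highest of the 24 livers, and the same livers ranked 1, 2 and 4 for Col4a1 and 1, 6 and 3 for Col4a2. Trans replicate 2 ranked 3 for Col4a1 and 2 for Col4a2, but 17 for the sum of the smooth muscle markers. Of 10 activated stellate cell markers, which share Acta2 and Tagln with the former list, 9 were higher in Trans (median 0.25), with Col1a1 at 0.83 (SE 0.25, adjusted p = 0.429) and Fn1 at -0.02. Fn1 made up 80.3% to 93.9% of the summed signal of this list, so the sum was also taken over the other 9 markers. It then ran from 167 to 536 in Trans (highest in replicate 1), from 154 to 272 in Cis and from 166 to 246 in Saturated, against 2229 to 2793, 2372 to 2642 and 2286 to 2606 with Fn1, and the diets overlapped either way. The part of these cells in the differences was not tested.

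Markers of endothelium differed less between Trans and Saturated livers. In Trans against Cis, 8 of 8 sinusoidal (median 0.08) and 7 of 9 vascular endothelium markers (median 0.10) were higher, with 0 calls. Clec4g was 0.32 and Pecam1 0.24 higher there, and the median of the smooth muscle markers was 0.43. Of 8 sinusoidal endothelium markers, 6 were higher in Trans than in Saturated (median 0.06), with Clec4g at 0.20 (SE 0.08) and Stab2 at 0.03, and the summed signal ran from 1349 to 1622 in Trans, from 1211 to 1546 in Cis and from 1249 to 1579 in Saturated. Of 9 vascular endothelium markers, 7 were higher (median 0.07), with Pecam1 at 0.14, and the summed signal ran from 616 to 775 in Trans, from 553 to 715 in Cis and from 583 to 688 in Saturated. In contrast, 7 of 8 Kupffer cell markers (median -0.26, Clec4f at -0.30), 6 of 8 quiescent stellate cell markers (median -0.12, Lrat at -0.25) and 7 of 8 hepatocyte markers (median -0.04, Alb at -0.04) were lower in Trans than in Saturated. Cholangiocyte markers (3 of 6 higher, median -0.0029) and mesothelial markers (3 of 6 higher, median 0.03) were split evenly by direction. Only 1 of the 6 cholangiocyte markers and 0 of the 6 mesothelial markers had a mean signal over 20. Each of these lists held 0 calls, and the part of these cells in the differences was not tested.

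For the 3 collagens with a mean signal over 20, the 5 genes with the most similar pattern were taken by Pearson's r across the 24 livers among 8297 other genes with a mean signal over 20. These correlations include the differences between diets and are given as a description. For Col4a1 they were Sptbn1 (a spectrin, r = 0.89), Idh2 (mitochondrial isocitrate dehydrogenase, 0.86), Ifi27l2b (0.84), Col4a2 (0.84) and Nid1 (nidogen, the protein that joins laminin to collagen IV, 0.84). For Col4a2 they were Pyroxd2 (0.86), Col4a1 (0.84), Ifi27l2b (0.82), the keratin gene Krt8 (0.81) and the annexin gene Anxa2 (0.80). After removal of the diet means, r with Col4a1 was 0.85 for Sptbn1, 0.84 for Nid1, 0.81 for Idh2, 0.78 for Ifi27l2b and 0.76 for Col4a2. For Col4a2 it was 0.83 with Pyroxd2, 0.72 with Ifi27l2b, 0.69 with Krt8 and 0.67 with Anxa2. Neither chain of the pair was thus the gene closest to the other. The genes nearest to Col18a1 were Wdr91 (0.81), Coq8a (0.76), Mcu (0.76), Sphk2 (0.73) and Zmynd8 (0.73), and none of these was among those nearest to Col4a1 or Col4a2.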

How the data were processed

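Affymetrix Mouse Gene 1.1 ST arrays were run on liver RNA of 24 mice, with an RNA integrity number over 8. The authors normalized the scans by RMA, and the deposited values are log2 values, 1 per probe set and liver. The table holds 35556 probe sets, of which 21218 have 1 gene, 1881 several and 12457 none in the annotation used, and a gene was read from its single-gene probe set of highest mean. All 24 columns were used.

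A linear model of the 3 diets was fitted to all livers in R 4.3.3 with limma 3.58.1 (lmFit, eBayes), with 21 residual degrees of freedom. Tests are two-sided, adjusted by Benjamini and Hochberg over all probe sets of a comparison and called under 0.05. Correlations of chain pairs were tested by 100000 permutations of livers within diets, and by 10000 with each liver left out in turn. The limma fit was tested on simulated data. With arrays, their number limits the precision.

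The 8 collagens and the lists were chosen with earlier results of these data known. Of each list of basement membrane genes, called genes or else up to 3 of smallest p were named, while Hspg2 and Pxdn were added with their values already known. The other settings tried were eBayes with trend and robust estimation, a signal filter, fits of 2 diets, a replicate block, array weights, renormalization, Tukey's test and leaving out livers. The batch in which arrays were processed is not given in the sources used here.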

Additional observations from a re-analysis of the deposited data

Results flagged for a closer look

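Among the 24 sets of 8 livers (8 genes in 3 diets), 2 held a liver far from the others by Dixon's gap ratio, where chance alone gives about 1 in 20. Col4a1 in the Cis group was lowest in replicate 7 at 3.98, with the nearest liver at 4.37, so that the gap was 0.548 of the range. Col4a4 in the Trans group was highest in replicate 4 at 2.73, with the nearest liver at 2.52 and a gap of 0.560 of the range. Cis replicate 7 was also the lowest Cis liver for Col4a2 (4.02), and Trans replicate 4 was the array with the lowest median correlation with the others (0.975).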

How the results depend on the processing

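Of 801 values of the 8 genes under 34 other settings, 791 kept their direction and their side of the threshold. Of the rest, 7 changed sign, and Col4a1, Col4a2 and Col4a5 passed 0.05 between Trans and Saturated by the methods' Tukey test without adjustment. Part of this agreement was fixed in advance. Several settings change the test but not the difference between means, and a left-out liver changes only the differences that involve its diet. None of the 8 genes was called in the main fit, so keeping the side of the threshold mostly restates that. The adjusted p of Col4a2 ran from 0.113 (signal over 20) to 0.714 (Tukey's test) over the other settings with all livers, and from 0.127 to 0.385 with each liver left out.

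The count of called probe sets between Trans and Saturated was 3, and became 0 with 2 diets in the fit, 5 with a replicate block, 1 with median centring, 0 by Tukey's test with adjustment, 1180 by Tukey's test without it and 0 without Trans replicate 4 and Cis replicate 8. With each liver left out it ran from 1 to 16, with 16 without Saturated replicate 2 and 6 without Saturated replicate 1. Between Trans and Cis the count of 1 became 0 over signal 20, 0 with 2 diets, 0 with a replicate block, 0 by adjusted Tukey's test, 947 by unadjusted Tukey's test and 0 without both livers, and ran from 0 to 2. Between Cis and Saturated the count of 0 became 1011 by unadjusted Tukey's test and ran from 0 to 3. None of the 8 collagens was called by limma in any of these settings.

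The members past an unadjusted p of 0.05 with each liver left out numbered 2 to 3 for Trans against Saturated, 0 to 2 for Trans against Cis and 0 to 3 for Cis against Saturated. The last count, 1, became 2 with 2 diets in the fit, 2 with renewed quantile normalization, 2 with median centring and 0 without both livers.

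Signs turned for Trans against Cis in Col4a4 (-0.0054 with array weights, -0.028 without both livers) and Col4a3 (-0.015 without both livers, and -0.0083 to 0.063 with each liver left out, lowest without Trans replicate 4). For Cis against Saturated, with each liver left out, they turned in Col18a1 (-0.031 to 0.047, lowest without Cis replicate 2) and Col15a1 (-0.017 to 0.14, lowest without Saturated replicate 6).

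With each liver left out, r ran from 0.65 to 0.81 for Col4a1 with Col4a2 (lowest without Trans replicate 1), from 0.29 to 0.44 for Col4a3 with Col4a4 (adjusted permutation p = 0.0478 without Saturated replicate 1) and from -0.011 to 0.20 for Col4a5 with Col4a6. The difference Col4a4 minus Col4a3 ran from -0.30 to -0.22 for Trans against Saturated (highest adjusted exact p = 0.0405), from -0.35 to -0.25 for Cis against Saturated (adjusted exact p from 0.0187 without Cis replicate 5 to 0.107) and from -0.010 to 0.086 for Trans against Cis (-0.013 without both livers). Col4a6 minus Col4a5 ran from -0.29 to -0.22 for Trans against Saturated (highest adjusted exact p = 0.0405) and from -0.11 to 0.026 for Cis against Saturated (0.013 without both livers), and Col4a2 minus Col4a1 ran from -0.014 to 0.045 for Trans against Cis. The cause of these shifts was not tested. Each gene had 1 probe set, so another probe set per gene could not be tried. Deviations of same-numbered livers in different diets correlated between -0.07 and 0.09, with a median of 0.02. Those of differently numbered livers correlated between -0.14 and 0.26, with a median of -0.0031. These values cannot show whether same-numbered livers shared a block, and the livers were not treated as paired in the main fit.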
